A study of Mus musculus with 21 samples.

Results

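Sprr2a3, Sprr2b and Sprr2g, members of the Sprr2 family of small proline-rich proteins, were followed across the uterus of mice of different ages. They are 3 of 12791 genes with deposited values, and they were chosen by their normalised read counts in aged against younger uteri, where they were low. Their values in aged against younger uteri are therefore a description, without a test. RNA of whole uteri was sequenced from the inbred mouse strain C57BL/6J, all wild type, in 7 libraries at 5 weeks of age, 7 at 8 weeks and 6 from aged animals. All mice, of every age, had received PMSG, a gonadotropin from pregnant mares that stimulates ovarian follicles, 48 hours before dissection, at 5 or 7.5 units, and the labels do not say which mouse had which dose. The libraries form a later set, with 5 at 5 weeks, 5 at 8 weeks and 4 aged at 79 weeks, and an earlier set, with 2 of each age and aged mice of 60 to 75 weeks. The age of the aged mice and the set cannot be told apart, and the labels name 2 instruments, 2 read lengths and 2 RNA kits without saying which library had which.

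Small proline-rich proteins are building blocks of the cornified envelope, the tough layer that squamous epithelia such as epidermis form beneath the cell membrane. Transglutaminases join them to each other and to other envelope proteins through their glutamine- and lysine-rich ends. The mouse Sprr genes lie side by side in the epidermal differentiation complex. The mouse uterus has a simple, not a cornified, luminal epithelium, and there the Sprr2 genes are known as targets of estrogen: their RNA rises when estrogen is given or when it peaks in the cycle.

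The column headers, not the samples to which files were attached, were used to name the libraries, since 15 of 20 headers name another sample than the file does, 2 of them of another age group and 2 of the other set. The 2 of another age group are 5w replicate 3, attached to an aged sample, and 8w replicate 3, attached to a 5-week sample. The 2 of the other set are aged replicate 2, of the earlier set, and aged replicate 5, of the later set. Results for the 3 genes are given below also without these 4 columns. The 14 later libraries held 19100690 to 30689439 reads and the 6 earlier ones 12204573 to 14448283. The tables list genes with 10 or more reads in each library, so that a gene without reads in some uterus has no row. That the animals were separate is not stated for each replicate, so the spread between libraries may in part be technical.

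The 3 genes are near relatives in sequence, and this bears on how well reads can be given to each of them. On mouse build GRCm38, Sprr2a3 (ENSMUSG00000074445) lies at chr3:92285417-92291405, Sprr2b (ENSMUSG00000050092) at chr3:92316620-92318085 and Sprr2g (ENSMUSG00000046203) at chr3:92373915-92375229, all on the plus strand and each with 2 exons in GENCODE release 21. GENCODE types the first 2 as protein coding and Sprr2g as a polymorphic pseudogene. Its coding models hold 228 and 232 bases, and the longer is not a multiple of 3. The first 90 coding bases are shown to let the copies be compared by eye, with Sprr2f, the most abundant relative measured, beside them. Capitals mark bases that mismatch Sprr2b in the alignment.
Sprr2a3: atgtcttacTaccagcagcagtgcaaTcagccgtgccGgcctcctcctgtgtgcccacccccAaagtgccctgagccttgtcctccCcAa
Sprr2b: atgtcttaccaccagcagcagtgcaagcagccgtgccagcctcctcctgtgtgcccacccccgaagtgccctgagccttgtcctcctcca
Sprr2g: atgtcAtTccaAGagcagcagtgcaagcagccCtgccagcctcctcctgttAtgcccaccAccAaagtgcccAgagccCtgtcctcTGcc
Sprr2f: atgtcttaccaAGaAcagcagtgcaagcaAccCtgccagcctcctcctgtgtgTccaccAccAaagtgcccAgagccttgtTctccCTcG

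Sprr2a3 differed from Sprr2b at 6 of these bases, Sprr2g at 12 with 1 further unpaired base, and Sprr2f at 13. The stretches, at chr3:92288588-92288677, chr3:92317449-92317538, chr3:92374640-92374729 and chr3:92365896-92365985 of the plus strand of GRCm38, each begin at the start codon. Over the whole coding sequence identity was 74.5% between Sprr2a3 and Sprr2b and 66.1% between Sprr2b and Sprr2g. It was 98.8% between Sprr2a3 and Sprr2a1, a neighbouring copy with no row in the tables. Of all windows of 60 bases, the length of the single reads, 44.5% were unique to Sprr2a3 among annotated transcripts, 90.1% to Sprr2b and 100% to Sprr2g and to Sprr2f. With windows of 150 bases, the length of the paired reads, these shares were 81.0% for Sprr2a3 and 100% for Sprr2b. The level of Sprr2a3 is therefore uncertain, because its reads can be shared with Sprr2a1, Sprr2a2 and, at 60 bases, Sprr2b, while most stretches of Sprr2b and all of Sprr2g identify the gene.

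**Figure D1:**
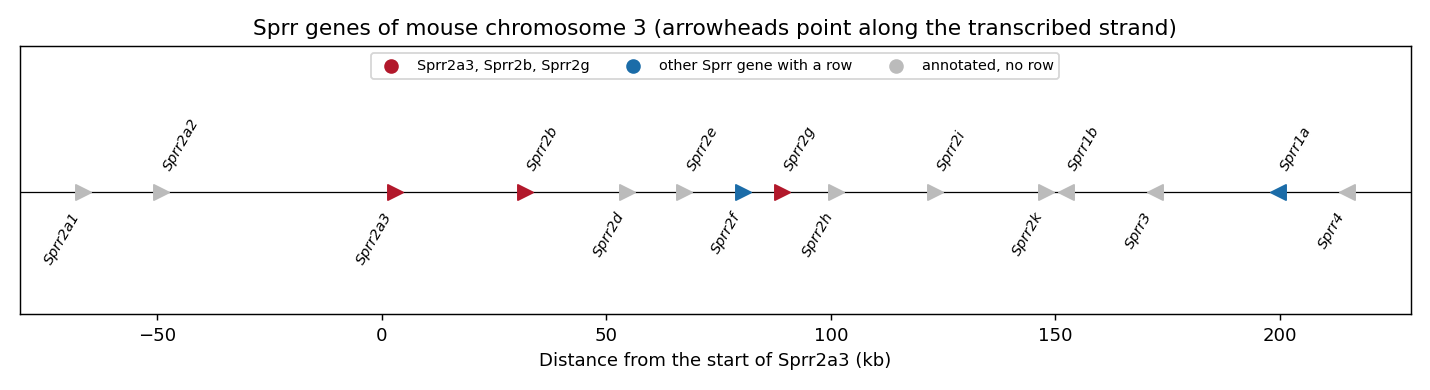
Positions of the annotated Sprr genes on mouse chromosome 3, as distance in kb from the start of Sprr2a3. Red marks Sprr2a3, Sprr2b and Sprr2g, blue the other Sprr genes with values (Sprr2f and Sprr1a) and grey those without a row, and each arrowhead gives the strand.

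Aged uteri had little RNA of any of the 3 genes. The lowest, median and highest levels of Sprr2b were 6.07, 98.9 and 174 CPM (counts per 1000000 reads) at 5 weeks, 3.71, 33.4 and 165 CPM at 8 weeks, and 0.453, 1.27 and 1.94 CPM in aged uteri. Every aged library lay below every younger library, including the 2 lowest of these, 8w replicate 6 and 5w replicate 3. By geometric means, aged uteri were 32.6-fold lower than 8-week uteri and 61.8-fold lower than 5-week uteri. Aged libraries held 10 to 50 reads of Sprr2b and younger libraries 114 to 4189. In aged replicate 7, with 10 reads, the level of 0.453 CPM has an exact Poisson 95% interval of 0.217 to 0.833 CPM, which covers counting error only. In bulk tissue fewer cells that make an RNA and less of that RNA per cell cannot be told apart.

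Sprr2g, the copy typed as a polymorphic pseudogene, was likewise low in every aged uterus. Its lowest, median and highest levels were 51.3, 109 and 483 CPM at 5 weeks, 20.04, 57.1 and 279 CPM at 8 weeks and 3.25, 6.62 and 13.5 CPM in aged uteri. The aged libraries did not overlap the younger ones. The geometric mean was 9.66-fold lower in aged than in 8-week uteri and 20.1-fold lower than at 5 weeks. At 47 to 221 reads per aged library, Sprr2g was counted more deeply in aged uteri than Sprr2b was.

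Sprr2a3 was also low in aged uteri, but its aged and younger libraries overlapped. Its levels ran from 4.03 over a median of 113 to 333 CPM at 5 weeks, from 5.21 over 42.3 to 477 CPM at 8 weeks and from 1.97 over 4.06 to 8.71 CPM in aged uteri. Of the 6 aged libraries, 4 lay below every 8-week library and 3 below every 5-week library. The overlap came from 8w replicate 6, with 5.21 CPM, and 5w replicate 3, with 4.03 CPM, the same libraries that had the lowest Sprr2b. The header of 5w replicate 3 names a 5-week sample, while its column is attached to an aged sample. The geometric mean was 11.8-fold lower in aged than in 8-week and 13.7-fold lower than in 5-week uteri. Among all 12791 genes, 1.02% had all aged libraries below all 8-week libraries, 1.43% had them below all 5-week libraries and 0.571% below both. Sprr2b and Sprr2g were chosen for this contrast, so nothing is read from their being among them.

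**Figure D2:**
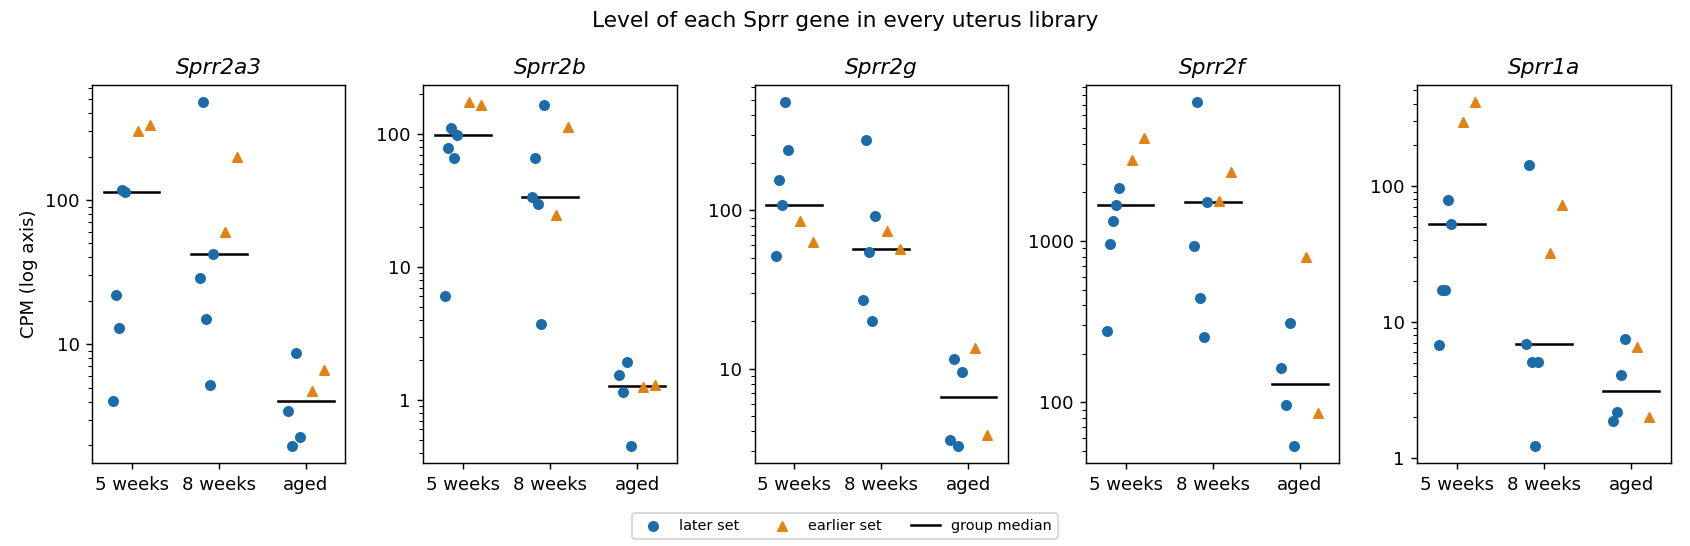
CPM on log axes of 5 Sprr genes in each of the 20 uterus libraries at 5 weeks, at 8 weeks and aged, with circles for the later set, triangles for the earlier set and bars for group medians. For Sprr2b and Sprr2g the 6 aged libraries lie below all 14 younger ones, while for Sprr2a3, Sprr2f and Sprr1a the lowest younger libraries reach into the aged range.

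Per kilobase of exon, a scale that allows for unlike gene length, Sprr2g was the most abundant of the 3 in the median library of each age. Reads of Sprr2a3 can be shared with other copies, and how such reads were counted is not known, so its level on this scale is uncertain. Median levels per kilobase were 39.2 CPM for Sprr2a3, 126 CPM for Sprr2b and 167 CPM for Sprr2g at 5 weeks. At 8 weeks they were 14.7, 42.6 and 87.7 CPM for the same genes in the same order, and in aged uteri 1.41, 1.62 and 10.2 CPM. The ranges of the 3 genes overlapped at 5 and at 8 weeks. In aged uteri Sprr2g, at 4.99 to 20.8 CPM per kilobase, lay above both Sprr2a3 (0.685 to 3.02) and Sprr2b (0.578 to 2.47), whose ranges overlapped. Ranked by CPM within a library, Sprr2b stood between place 1174 and 11217 of 12791 genes at 5 weeks and between 967 and 12034 at 8 weeks. In aged libraries it stood between 12463 and 12789 of 12791, close to the end of the table.

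Fitted with limma on log2(CPM + 1) with terms for age group and set, the difference of aged from 8-week uteri was -4.21 ± 0.69 (SE) for Sprr2b, -3.37 ± 0.86 for Sprr2a3 and -3.05 ± 0.56 for Sprr2g. Ordered from the lowest of 12791 log2 fold changes, Sprr2b was at place 1, Sprr2a3 at 4 and Sprr2g at 12. In this comparison 17.2% of all genes passed an adjusted p of 0.05, 8.64% higher and 8.53% lower in aged uteri. The difference of aged from 5-week uteri was -5.10 ± 0.69 for Sprr2b, at place 1, -4.09 ± 0.56 for Sprr2g, at place 3, and -3.59 ± 0.86 for Sprr2a3, at place 13. There 22.1% of all genes passed, 12.7% higher and 9.41% lower. A gene with fewer than 10 reads in any library has no row and so no place. The 3 genes were chosen by low values in aged uteri, so nothing is read from their places. Both comparisons use the same 6 aged libraries. Adding 1 CPM before the log shrinks these values most for Sprr2b, whose aged level is near 1 CPM: without it the differences were -5.07 from 8-week and -5.99 from 5-week uteri.

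The differences had the same sign in both sets of libraries, a description only, since the genes were chosen by these differences. Within the later set alone (4 aged against 5 8-week libraries) they were -4.01 for Sprr2b, -2.996 for Sprr2a3 and -3.11 for Sprr2g, and within the earlier set alone (2 against 2) -4.58, -4.06 and -2.98 for the same genes. Against 5-week uteri, Sprr2a3 differed by -2.70 within the later and by -5.59 within the earlier set, Sprr2b by -4.60 and -6.23, and Sprr2g by -4.50 and -3.16. A term for whether the difference of aged from younger uteri itself differed between the sets (later minus earlier) was 1.98 ± 1.59 (SE) for Sprr2a3, 1.10 ± 1.33 for Sprr2b and -0.73 ± 1.06 for Sprr2g, given without a test because the genes were chosen by these differences. Of all genes 0.43% were called for this term, 0.0625% with a higher and 0.367% with a lower value in the later set. Without the 4 columns named above this term was -2.15 for Sprr2g, in a fit where aged replicate 1 alone stood for the aged mice of the earlier set. Without the 4 columns whose file belongs to another age group or set, the differences of aged from 8-week uteri were -3.20 for Sprr2a3, -4.15 for Sprr2b and -3.31 for Sprr2g, and those from 5-week uteri were -3.89, -5.57 and -4.37.

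**Figure D3:**
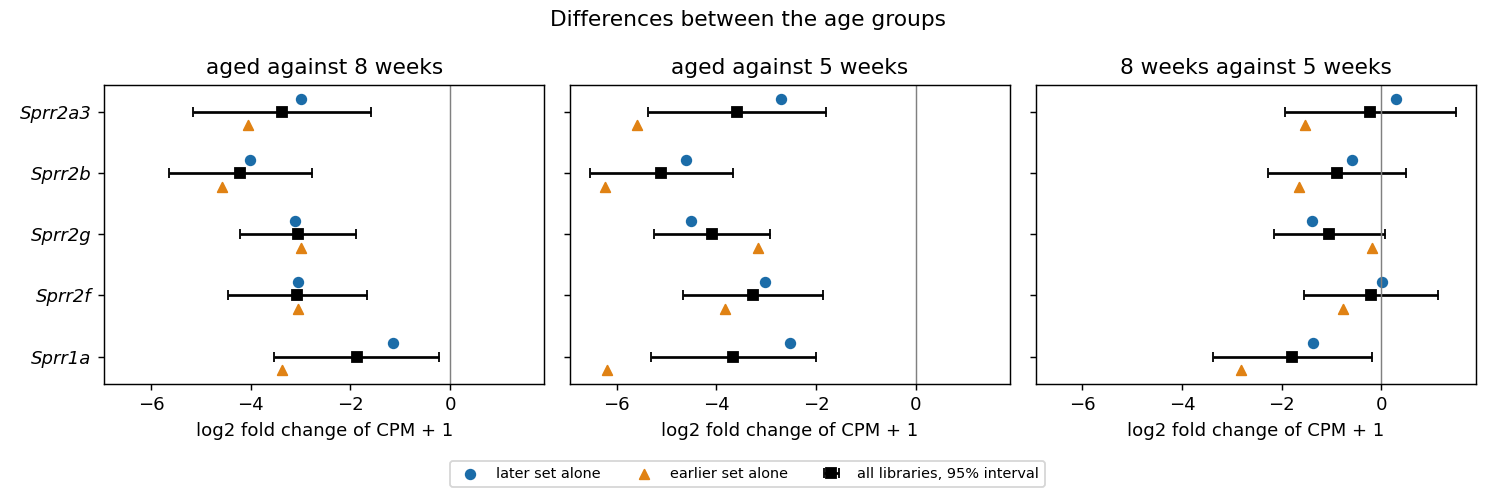
Log2 fold changes of CPM + 1 for 5 Sprr genes in aged against 8-week, aged against 5-week and 8-week against 5-week uteri. Squares with bars are estimates over all 20 libraries with 95% intervals, circles the later set alone and triangles the earlier set alone; for the 3 genes every point of the aged comparisons lies below 0, while their intervals for 8 against 5 weeks include 0.

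Between 8 and 5 weeks, a comparison that played no part in choosing the genes, no difference was called. Sprr2g averaged 86.2 ± 88.4 CPM at 8 weeks and 170 ± 153 CPM at 5 weeks (SD, n = 7 each), with a log2 fold change of -1.04 ± 0.53 (SE; 95% interval -2.16 to 0.07). Sprr2b averaged 62.2 ± 57.6 CPM at 8 weeks and 99.8 ± 57.9 CPM at 5 weeks, with a change of -0.89 ± 0.66 (-2.27 to 0.49). Sprr2a3 averaged 118 ± 171 CPM at 8 weeks and 129 ± 136 CPM at 5 weeks, with a change of -0.23 ± 0.82 (-1.94 to 1.49). The limma adjusted p was 1.00 for each of them. Across all genes limma called 0, which is 0% of 12791, and 139 had an unadjusted p under 0.05. The intervals include both no change and a fall of more than 1 on the log2 scale, so the data do not show that the levels were alike. Sprr2a3 was higher at 8 than at 5 weeks by 0.30 within the later set and lower, by a change of -1.53, within the earlier set.

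Levels of the 3 genes spread widely among younger uteri of the same age. At 8 weeks the highest library had 91.5 times the lowest for Sprr2a3, 44.4 times for Sprr2b and 13.9 times for Sprr2g. In aged uteri the same ratio was 4.41, 4.27 and 4.16. The genes moved together in part across the 14 younger libraries, after the mean of each age and set was removed. In the earlier set each age has 2 libraries, whose deviations then mirror each other. The permutations treated all 14 deviations as free, so their p-values are likely too small. Sprr2a3 and Sprr2g had a Pearson r of 0.89 (permutation p = 5e-05, adjusted over 3 pairs 0.00015) and a Spearman rho of 0.78 (adjusted permutation p = 0.00537), and r was 0.78 without the 2 libraries farthest out in Sprr2a3 and 0.93 within the 10 libraries of the later set. Sprr2a3 and Sprr2b had an r of 0.67 (permutation p = 0.00903, adjusted 0.0135) and a rho of 0.66 (adjusted permutation p = 0.0186), with an r of 0.62 without the 2 farthest libraries. Sprr2b and Sprr2g had an r of 0.63 (permutation p = 0.016) and a rho of 0.53 (permutation p = 0.0562, adjusted 0.0562). That relation rests on 8w replicate 6 and on 5w replicate 3, the column attached to an aged sample. Without both, r was 0.24. Sprr2a3 and Sprr2b share some 60-base windows with each other, so that reads shared between them could enter their correlation, which was not tested. No 60-base window of Sprr2g is shared with either.

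**Figure D4:**
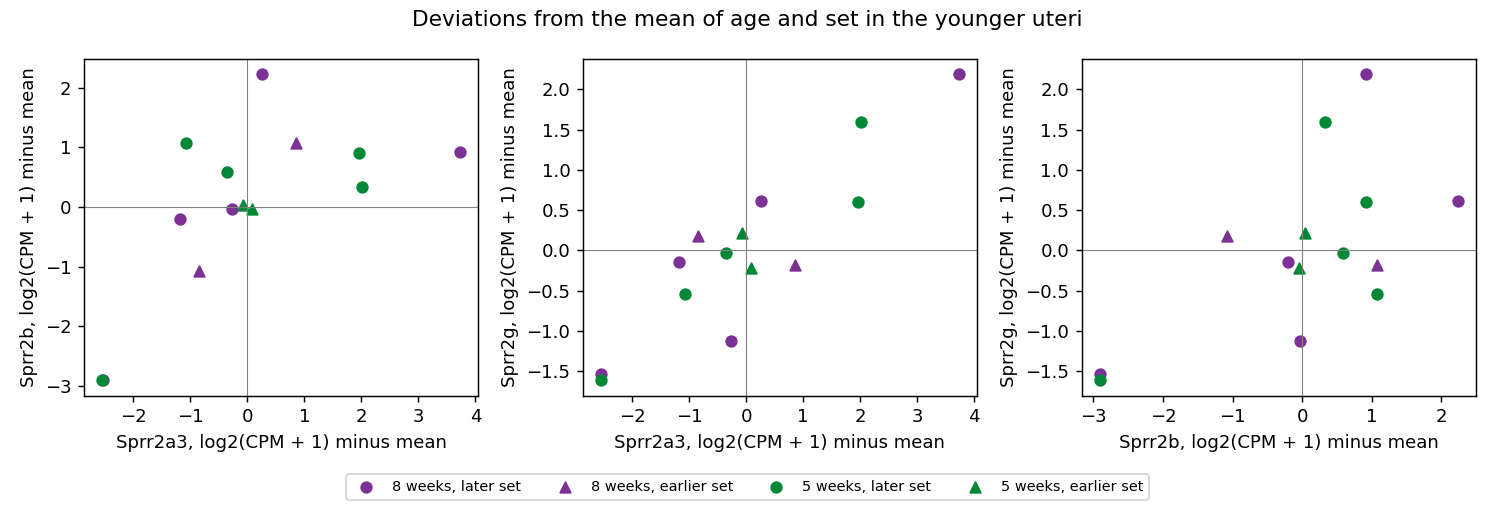
Deviations of log2(CPM + 1) from the mean of the library's age and set, for each pair of the 3 genes in the 14 younger uteri; purple points are 8-week and green points 5-week libraries, circles later and triangles earlier set. Points run along the diagonal most closely for Sprr2a3 and Sprr2g (r = 0.89), and 2 libraries at the lower left, 5w replicate 3 and 8w replicate 6, carry much of the relation of Sprr2b with Sprr2g (r = 0.63 with them and 0.24 without).

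The same libraries had the lowest levels of all 3 genes, 8w replicate 6 at 8 weeks and 5w replicate 3 at 5 weeks, while the highest differed between genes. Both also had the lowest mean log2(CPM + 1) of 24 epithelial markers at their age, 6.12 and 6.60. The next lowest at 5 weeks, 5w replicate 4, stood at 6.66 with 79.0 CPM of Sprr2b. The part of epithelial content in the shared variation of the 3 genes was not tested. At 5 weeks 5w replicate 2 was highest for Sprr2a3, 5w replicate 1 for Sprr2b and 5w replicate 6 for Sprr2g. Of the 7 8-week libraries, 8w replicate 4 had the highest Sprr2a3 (477 CPM) and Sprr2g (279 CPM), with a Sprr2b level of 65.6 CPM, while 8w replicate 7 had the highest Sprr2b (165 CPM) with 42.3 CPM of Sprr2a3. Without 8w replicate 4, the differences of aged from 8-week uteri were -2.73 for Sprr2a3, -4.05 for Sprr2b and -2.70 for Sprr2g. Without 5w replicate 3, those from 5-week uteri were -4.09, -5.63 and -4.32.

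Over all 20 libraries, with the mean of each set removed, the 5 genes whose log2(CPM + 1) was most like that of each member were found by Pearson r, as a description. For Sprr2a3 they were Omp (r = 0.947), Ldha (0.931), Pgk1 (0.929), Gm6548 (0.927) and Gch1 (0.923), with Sprr2f at place 13 (0.906). Ldha, lactate dehydrogenase A, and Pgk1, phosphoglycerate kinase, are enzymes of glycolysis, and Gch1 makes the cofactor tetrahydrobiopterin. For Sprr2b they included Tfrc (0.945), the transferrin receptor that takes up iron, Cog6 (0.932), a part of the Golgi tethering complex, the zinc transporter Slc39a1 (0.921) and the phospholipase Plch1 (0.918). For Sprr2g they were the nucleotide kinase Cmpk1 (0.912), the actin bundler Pls1 (0.91), the chemokine-scavenging receptor Ackr4 (0.909), and the vesicle traffic genes Rab11a (0.903) and Vamp3 (0.897). The lists share no gene, and no Sprr gene is in any of them: the members correlated with each other at 0.861 (Sprr2a3 and Sprr2b), 0.853 (Sprr2b and Sprr2g) and 0.803 (Sprr2a3 and Sprr2g). These correlations include the aged libraries, so any gene low in aged uteri gains from that difference.

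Of 15 annotated mouse Sprr genes, 5 had values. Beside the 3 members these were Sprr2f, at chr3:92365187-92366442 between Sprr2b and Sprr2g, and Sprr1a, an envelope protein of another subfamily, at chr3:92483952-92485895 on the minus strand. Sprr2f was the bulk of the family's RNA: of the summed CPM of the 5 genes it took 69.1% to 84.2% at 5 weeks, 81.1% to 90.6% at 8 weeks and 73.2% to 96.8% in aged uteri. Its level ran from 276 over a median of 1667 to 4373 CPM at 5 weeks, from 254 over 1751 to 7246 CPM at 8 weeks and from 53.9 over 130 to 791 CPM in aged uteri. The highest aged library, aged replicate 1, lay above 8w replicates 5 and 6 and 5w replicate 3. Sprr2f fell in aged against 8-week uteri by 3.06 ± 0.67 (SE) on the log2 scale (limma adjusted p = 0.00454), to a mean of 250 ± 280 CPM in aged uteri (SD, n = 6), against 2154 ± 2399 CPM at 8 weeks (n = 7). Against 5 weeks, with 1988 ± 1392 CPM (SD, n = 7), it fell by 3.27 ± 0.67 (limma adjusted p = 0.00212). Within the later set alone the sizes were -3.05 and -3.03, where neither passed (limma adjusted p = 0.0883 and 0.0544).

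Sprr1a fell in aged against 5-week uteri, and did not pass against 8-week uteri. It averaged 4.05 ± 2.49 CPM in aged uteri (SD, n = 6), against 125 ± 160 CPM at 5 weeks (n = 7), a log2 fold change of -3.66 ± 0.80 (SE; limma adjusted p = 0.00317). At 8 weeks it averaged 37.7 ± 52.2 CPM (n = 7), for a change in aged uteri of -1.87 ± 0.80 (limma adjusted p = 0.109). It passed against 8 weeks with the epithelial covariate (-1.92, limma adjusted p = 0.0191) and in the earlier set alone (-3.37, limma adjusted p = 0.011), and not in the later set alone (-1.14, limma adjusted p = 0.625). Within the sets its log2 fold change against 5 weeks was -2.51 in the later set (limma adjusted p = 0.152) and -6.18 in the earlier set, with a difference between the sets that was not called (2.95 ± 1.39, limma adjusted p = 0.346). The other 10 Sprr genes (Sprr1b, Sprr2a1, Sprr2a2, Sprr2d, Sprr2e, Sprr2h, Sprr2i, Sprr2k, Sprr3 and Sprr4) have no row and were not analysed here. Within 1 Mb of the 89.8 kb that hold the 3 members, GENCODE lists 54 genes typed as protein coding, and the genes with values there are the 5 Sprr genes, of which Sprr2g is typed otherwise.

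Of the 12791 genes with values, Sprr2b had the lowest log2 fold change in aged uteri, the contrast by which it was chosen. Sprr2f had the highest level of the Sprr genes with values. For these reasons the sequences upstream of these 2 genes are shown. They are from RefSeq's promoter table on GRCm38.p6, plus strand: chr3:92316455-92316619 for Sprr2b, ended where GENCODE's first exon begins, and chr3:92364937-92365186 for Sprr2f. Capitals mark 3 motifs that were searched by their letters on both strands: TGAGTCA, the AP-1 site bound by Fos and Jun proteins, ATTTGCAT, the octamer bound by POU factors, and TATAAA, the TATA box.
Sprr2b: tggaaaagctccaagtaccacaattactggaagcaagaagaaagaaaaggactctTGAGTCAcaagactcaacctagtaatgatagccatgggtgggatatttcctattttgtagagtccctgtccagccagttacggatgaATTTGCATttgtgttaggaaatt
Sprr2f: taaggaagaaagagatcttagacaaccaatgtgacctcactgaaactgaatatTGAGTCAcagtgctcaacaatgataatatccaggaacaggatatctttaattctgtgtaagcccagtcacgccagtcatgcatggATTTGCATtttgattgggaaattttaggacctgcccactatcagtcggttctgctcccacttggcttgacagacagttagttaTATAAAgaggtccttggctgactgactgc

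In the full 250 bases before the RefSeq start, Sprr2b had the AP-1 letters 195 bases, the octamer 108 bases and TATAAA 29 bases before the start, the last of them beyond the stretch printed. In Sprr2f these distances were 197, 112 and 29 bases. No upstream window was available for Sprr2g, so it was not searched. Of the 14 Sprr genes in the table, 7 held the octamer, 8 the AP-1 letters and 10 TATAAA. Among all 32851 windows of the same length these shares were 1.60%, 4.46% and 12.4%. The 7 with the octamer included Sprr2d, Sprr2e, Sprr2h, Sprr2i and Sprr2k, which have no row. The window of Sprr2a3 held none of the 3 motifs, and it was identical over 222 aligned bases to those of Sprr2a1 and Sprr2a2. The palindrome of an estrogen response element, GGTCA with TGACC after 3 free bases, was in 0 of the 14 windows and in 0.0639% of all. GGTCA alone was in 2 of the 14, Sprr2f among them, and in 35.2% of all. The interferon response letters, GAAA with a second GAAA after 2 free bases, were in 0 of the 14 and in 2.98% of all. A match is a description of letters, and its absence says nothing of the factor.

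Other genes of the envelope pathway were compared by list. Of 12 genes other than the 3 members that were called in aged against 8-week uteri and run under each alternative, 2 (Ube2c and Foxa2) passed in the later set alone and 5 (Sprr2f, Anxa2, Lif, Sfn and Ube2c) with columns attached by file. Of 51 other genes of the epidermal differentiation complex, 8 had values, all but Tchh (trichohyalin) calcium-binding S100 genes, and 1 was lower in aged than in 8-week uteri, S100a10, where 8.53% of all genes were lower. Against 5-week uteri 1 was higher (Tchh) and 1 lower (S100a10), where 12.7% and 9.41% of all genes were. The list's median log2 fold change was -0.01, against 0.05 over all genes, and loricrin, involucrin and filaggrin, the main envelope proteins of epidermis, have no row. Of 24 envelope crosslinkers and scaffold proteins, 13 had values, and 1 was lower, Anxa2, an annexin of the membrane (-1.03 ± 0.23, limma adjusted p = 0.00525). Tgm1, the transglutaminase of the epidermal envelope, differed by 0.10 ± 0.23 (limma adjusted p = 0.79), and the plakins Evpl and Ppl, to which the envelope is anchored, by 0.27 and 0.79 without passing. Against 5-week uteri 2 of the 13 were lower (Anxa1 and Anxa2) and 0 higher. The S100a10 call ended when any 1 of 8w replicates 1 and 3 and aged replicates 1, 4, 6 and 7 was left out (limma adjusted p = 0.0555 to 0.0759).

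Markers of squamous epithelium were mostly without values. Of 23, 5 had a row, while Krt5, Krt14 and Trp63, which define the basal layer, had none. Their summed level was 23.0 to 69.4 CPM in aged, 54.8 to 242 CPM in 8-week and 53.6 to 232 CPM in 5-week libraries. Against 5-week uteri 2 of the 5 were lower, Sfn among them, and 0 higher, where 9.41% and 12.7% of all genes were. Sfn, a 14-3-3 protein of epithelial cells, was the 1 gene called in aged against 8-week uteri, where 8.53% of all genes were lower. It averaged 22.3 ± 10.8 CPM in aged uteri (SD, n = 6), against 85.9 ± 54.6 CPM at 8 weeks (n = 7), a fall of 1.82 ± 0.39 (SE; limma adjusted p = 0.00372). Its log2 fold change was -1.12 within the later set, where it did not pass (limma adjusted p = 0.182), and -3.30 within the earlier set. The part of the squamous markers in the Sprr2 levels was not tested.

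All 24 general markers of the uterine epithelium had values. In aged against 8-week uteri 2 were higher (Prom1 and Cldn4) and 0 lower, where 8.64% and 8.53% of all genes were, with a median log2 fold change of -0.16. Against 5-week uteri 2 were higher and 1 lower (Cldn7), where 12.7% and 9.41% of all genes were, with a median of -0.37. The summed level was 3453 to 10101 CPM in aged, 2694 to 14892 CPM in 8-week and 3353 to 14015 CPM in 5-week libraries. Prom1, a membrane protein of the apical surface, rose by 1.81 ± 0.41 against 8 weeks (limma adjusted p = 0.00525). The call of Cldn4, a tight junction protein, ended without 8w replicate 2 or aged replicate 6 or 7 (limma adjusted p = 0.0533 to 0.0649). With the mean of the 24 markers as a covariate, the differences of aged from 8-week uteri were -3.40 for Sprr2a3, -4.23 for Sprr2b and -3.07 for Sprr2g, beside -3.37, -4.21 and -3.05 without it. Those from 5-week uteri were -3.40, -4.98 and -4.00 for the same genes. The part of epithelial content in the Sprr2 levels was not tested.

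**Figure D5:**
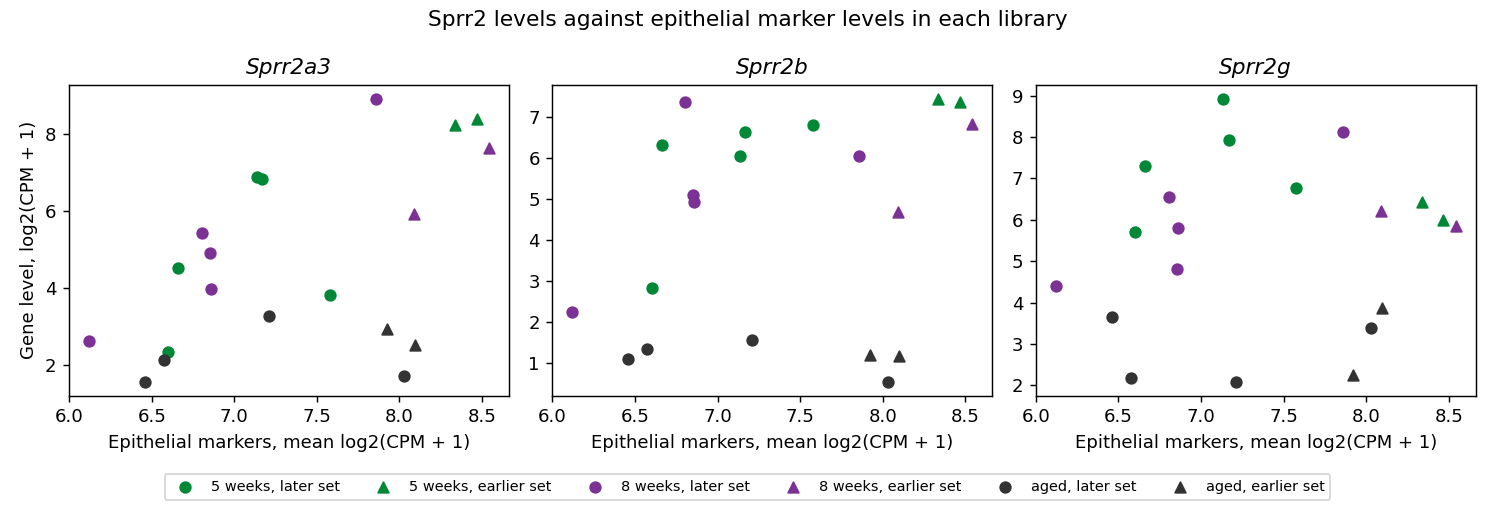
Log2(CPM + 1) of each of the 3 genes against the mean log2(CPM + 1) of 24 epithelial markers in each of the 20 libraries, with green for 5 weeks, purple for 8 weeks and black for aged, circles for the later and triangles for the earlier set. The aged libraries span 6.46 to 8.10 on the marker axis. For Sprr2b and Sprr2g they lie below all younger libraries on the vertical axis, the contrast by which the genes were chosen, so nothing is read from this about the markers.

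Glandular markers differed in both directions. Of 11 genes, 6 had values. In aged against 8-week uteri Foxa2, Fgfr2 and Pigr were higher and Lif lower, where 8.64% and 8.53% of all genes were. Pigr, which carries antibody across the epithelium, rose by 1.82 ± 0.45 (limma adjusted p = 0.00953) and Foxa2, a gland factor, by 1.54 ± 0.40 (limma adjusted p = 0.0122). Foxa2 differed by 2.20 within the later set and by 0.09 within the earlier set, where it did not pass (limma adjusted p = 0.908). Neither gene passed with columns attached by file (limma adjusted p = 0.2 and 0.0527). The call of Lif, a signal for implantation, ended when any 1 of 8w replicates 2, 3 and 5 and aged replicates 1, 2 and 4 was left out (limma adjusted p = 0.052 to 0.0687). Of 11 stromal markers 2 were lower and none higher in aged against 8-week uteri. Of 10 smooth muscle markers and of the 3 neutrophil markers with values 0 passed there. Against 5-week uteri 3 glandular markers were higher and 1 lower, and 3 stromal markers were lower. Smooth muscle markers had 2 higher and neutrophil markers 0 called, where 12.7% of all genes were higher and 9.41% lower. The part of these cell types in the Sprr2 levels was not tested.

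Of 38 genes that estrogen is known to induce in the uterus, 33 had values. In aged against 8-week uteri 1 was higher (Ltf, lactoferrin) and 7 were lower, where 8.64% and 8.53% of all genes were, with a median of -0.20 and single values from -3.48 to 1.43. The largest fall was that of Ube2c, a ubiquitin enzyme of cell division, by 3.48 ± 0.36 (limma adjusted p = 6.77e-05). Against 5-week uteri 3 were higher and 6 lower, where 12.7% and 9.41% of all genes were. The calls of Ltf and of Ramp3, a receptor partner that was lower, ended in aged against 8-week uteri without aged replicate 1 (limma adjusted p = 0.0549 and 0.0528), and that of Ltf also without 8w replicate 1 or aged replicate 6 (limma adjusted p = 0.0666 and 0.0600). Of 5 steroid hormone receptors with values none passed in either comparison, and Esr1, the main estrogen receptor of the uterus, differed by 0.27 ± 0.21 against 8-week uteri (limma adjusted p = 0.378).

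Transcription factors of epithelia and of the AP-1, Ets, Stat and POU families, several of which are known to act on Sprr promoters, were also compared. Of 24, 21 had values, and 0 passed in aged against 8-week uteri, where 17.2% of all genes did, with a median log2 fold change of -0.04. Klf4, a barrier factor of epithelia, differed by -1.03 ± 0.48 (limma adjusted p = 0.147), Elf3, an Ets factor of epithelia, by -0.92 ± 0.46 (limma adjusted p = 0.175) and Ovol1, a zinc finger factor of epithelial differentiation, by -0.82 ± 0.29 (limma adjusted p = 0.0539). With the epithelial covariate all 3 passed as lower (limma adjusted p = 0.0382, 0.0268 and 0.0112). Elf3 is itself among the markers whose mean is that covariate, so nothing is read from its passing there. Klf4 also passed in the earlier set alone (limma adjusted p = 0.00821) and without aged replicate 7 (limma adjusted p = 0.0356). Ovol1 also passed with quantile normalization (limma adjusted p = 0.0424), with no pseudocount (limma adjusted p = 0.0499) and without 8w replicate 6 or aged replicate 7 (limma adjusted p = 0.0332 and 0.0248). Fos, Jun, Junb and Jund, which bind AP-1 sites, differed by -0.46, 0.72, 0.09 and -0.04, and Pou2f1, which binds octamers, by 0.06, without passing. The difference of Fos from younger uteri was higher in the later than in the earlier set by 2.41 ± 0.51 (limma adjusted p = 0.0444). That call ended when any 1 of 5w replicate 2, 8w replicate 2 and aged replicates 1, 2 and 6 was left out, since 0 genes were then called. Without 5w replicate 1 only 1 gene was called, and Fos was not itself followed in the other fits with a library left out. Against 5-week uteri 1 of the 21 was lower and 0 higher, where 9.41% and 12.7% of all genes were. The lower one was Ovol1, with a log2 fold change of -0.92 ± 0.29 (limma adjusted p = 0.0269). That call ended when any 1 of 5w replicates 2 and 7 and aged replicates 1, 4 and 5 was left out (limma adjusted p = 0.0524 to 0.0696).

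Of the 3 genes, Sprr2a3 differed between the sets of libraries. Later libraries were lower than earlier ones by 1.89 ± 0.75 (SE) on the log2 scale for Sprr2a3 (limma adjusted p = 0.0365). The same term was -0.80 ± 0.60 for Sprr2b (limma adjusted p = 0.264) and 0.27 ± 0.49 for Sprr2g (limma adjusted p = 0.659). This term was called for 58.7% of all genes, 20.5% higher and 38.3% lower in the later set. The difference of Sprr2a3 from the other 2 genes was not tested. The call of Sprr2a3 ended when any 1 of 5w replicates 1 and 2 and 8w replicates 2, 5 and 6 was left out (limma adjusted p = 0.0508 to 0.102). Of the 24 epithelial markers 17 were lower in the later set and none higher, with a median of -1.43. With their mean as a covariate the set term of Sprr2a3 was 0.55 ± 1.02 and that of Sprr2b 0.75 ± 0.89, so both changed sign. That of Sprr2g was 1.49 ± 0.72 with the covariate, and none of the 3 was then called. Read length and counting of shared reads may differ between the sets, and their part in the level of Sprr2a3 was not tested.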

How the data were processed

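RNA of 20 whole mouse uteri was measured, with 1 further sample without a column of its own. The authors deposited CPM per gene for each library, and per the submitters' processing notes the tools were edgeR, featureCounts, STAR and fastp (no versions) and the build GRCm38. How reads that match several genes were treated is not known here, and the library kit does not mark strand. The columns were grouped by header, and the earlier set is that with the letter s in its headers. In every library 100% of the CPM values were whole multiples of the level of 1 read, within 1e-05 reads, which gave total reads.

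Levels were analysed as log2(CPM + 1) with limma 3.58.1 in R 4.3.3 (eBayes with a trend), with terms for age group and set over 20 libraries, and p-values were adjusted by Benjamini-Hochberg over 12791 genes at a threshold of 0.05. The difference with age between the sets was a contrast over the 6 combinations of age group and set. Correlations used 100000 permutations, two-sided (SciPy 1.17.1 in Python 3.11.15), and alignments Biopython 1.88. The fit was tested on simulated data.

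The 3 genes and all gene lists were chosen with earlier results of these data known. Named beside them were the other Sprr genes with values, of each list up to 3 called genes with the largest change in aged against 8-week uteri, regulators and hormone receptors, and the 5 genes most like each member, of which 1 is not reported here. Tgm1, Evpl, Ppl, Ltf, Anxa1 and Cldn7 stand outside that rule and were named for their role or to spell out a count. Alternatives were other pseudocounts, a filter on low values, quantile normalization, median centring, robust variance, no set term, each set alone, a replicate block, columns by file, an epithelial covariate and each replicate left out. A fit without pseudocount and a fit without 4 columns were added after seeing the data. The count models that had been listed were not run: the deposited unit is CPM, and reads were recovered only to give depth and counting intervals.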

Additional observations from a re-analysis of the deposited data

Results flagged for a closer look

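Sprr2a3 stood at 477 CPM in 8w replicate 4, against 5.21 to 197 CPM in the other 6 8-week libraries, a gap of 0.593 of the group's range where Dixon's critical value for 7 samples is 0.568. Sprr2g stood at 279 CPM in the same library, against 20.04 to 92.4 CPM in the others, a gap of 0.720 of the range. Sprr2f and Sprr1a, whose gaps were not tested, were also highest there, at 7246 and 141 CPM. Its mean log2(CPM + 1) of the epithelial markers was 7.86. The other later 8-week libraries had 6.12 to 6.86 and the earlier ones 8.09 and 8.54. The part of epithelial content was not tested. The gaps were tested for 3 genes in the same 3 groups, and chance flags about 1 in 20 groups of normally distributed values, while these CPM values are skewed and the genes correlate. Without this library the log2 fold changes of aged against 8-week uteri were -2.73 for Sprr2a3 and -2.70 for Sprr2g.

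Fos, no Sprr gene but a part of AP-1, had a difference of aged from younger uteri that was higher in the later than in the earlier set by 2.41 ± 0.51 on the log2 scale (SE; limma adjusted p = 0.0444). No gene was called for this term when any 1 of 5w replicate 2, 8w replicate 2 and aged replicates 1, 2 and 6 was left out. Without 5w replicate 1 only 1 gene was called. Fos was not itself followed in the other fits with a library left out. Against 8-week uteri its log2 fold change was 0.18 within the later set and -1.80 within the earlier set.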

How the results depend on the processing

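The 3 genes were chosen by their low values in aged uteri, so what follows describes their log2 fold changes. In aged against 8-week and 5-week uteri these kept their sign under every alternative run. Leaving out each library moved those against 8 weeks from -3.77 to -2.73 (Sprr2a3), from -4.68 to -3.83 (Sprr2b) and from -3.32 to -2.70 (Sprr2g), and those against 5 weeks from -4.09 to -3.33, from -5.63 to -4.96 and from -4.34 to -3.79. In the earlier set alone, with 2 libraries a group, Sprr2a3 stood at -5.59 against 5 weeks. Between 8 and 5 weeks, Sprr2a3 was at 0.30 in the later set alone, at 0.0031 with the epithelial covariate, and from -0.87 to 0.19 with a library left out, above 0 without 5w replicate 2, 6 or 7 or 8w replicate 6. The set term of Sprr2a3 was not called with quantile normalization (-1.72), median centring (-1.60), columns by file (-1.33) or without the 4 columns (-1.72). With the epithelial covariate it was 0.55 and not called, beside 0.75 for Sprr2b and 1.49 for Sprr2g. The set term of Sprr2a3 ran from -2.20 to -1.62 with a library left out. The age difference of Sprr2g between the sets ran from -1.53 to 0.071 with a library left out, above 0 without aged replicate 1, and was -2.15 without the 4 columns. The r of Sprr2b with Sprr2g was 0.24 without the 2 farthest libraries. The cause of these shifts was not tested.

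Counts of called genes moved more. For aged against 8 weeks (2196) they were 969 with no set term, 183 in the later and 3613 in the earlier set alone, 565 by file, 1429 without the 4 columns and 1309 to 2617 with a library left out, the low values being 1309 without aged replicate 1, 1454 without 8w replicate 1 and 1358 without 8w replicate 2. For aged against 5 weeks (2825) they were 1380 with no set term and 523 in the later set alone. For the set term (7512) they were 3403 by file and 1939 with the covariate. For the age difference between sets (55) they were 117 with median centring, 1600 by file, 101 without the 4 columns and 0 to 135 with a library left out. The deviations of same-numbered libraries of different ages correlated at r from -0.51 to 0.28, over 0.1 in 10 of 19 pairs, in which those of replicates 1 and 2 mirror each other, so the numbers were not taken to pair the samples. With a replicate block the log2 fold changes of aged against 8-week uteri were -3.63, -4.47 and -3.27 for Sprr2a3, Sprr2b and Sprr2g, those against 5-week uteri -3.86, -5.36 and -4.31, and the counts 1637, 2413 and, for 8 against 5 weeks, 0, and S100a10, Ramp3 and Ltf no longer passed against 8 weeks (limma adjusted p = 0.0665, 0.0518 and 0.0606). The planned edgeR alternatives were not run. Aged libraries with 10 to 50 reads of Sprr2b limit the size of its difference more than its direction.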
